A study of Mus musculus with 12 samples.

Results

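In mouse embryonic stem (mES) cells in which the protein BRG1 can be degraded by dose, 139 genes had more transcript from 1 nM dTAG13 on than in control cells. The controls, at 0 nM, were given DMSO per the study. The number of genes rests on the 0 nM libraries, since the rule gave 235 genes without the first of them and 264 without the second. The 139 genes are 1.42% of the 9815 genes whose mean over the 12 libraries reached 5 CPM (counts per 1000000 counts of the library), out of 24421 genes in the table. A gene entered the set if its mean CPM at 1 nM was at least 1.25 times that at 0 nM and its means at 3 nM and at 100 nM were each at least 1.5 times that at 0 nM. The members were thus chosen by their values at 0, 1, 3 and 100 nM, which are given as description, without a test. The values at 0.3 and 10 nM entered only through the mean over all libraries, so the test used here compares 10 nM with 0.3 nM. That mean can still favour genes that are high at 10 nM, and how many members it let in so was not counted. The set held an arginine transporter gene, Slc7a2, the imprinted gene Peg10, the growth regulator Myc, the Polycomb genes Sfmbt2 and Bmi1 and 12 genes of meiosis and germ cells, among them Dmc1, Stag3, Tex15 and Sycp1.

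All libraries came from one line of mES cells, grown in serum medium with LIF and 2 kinase inhibitors, with an FKBP12-F36V degron knocked into the Brg1 locus. dTAG13 links this degron to an E3 ubiquitin ligase, so BRG1 falls with dose, and the DMSO-treated cells of 0 nM carried the same tag. The doses were 0, 0.3, 1, 3, 10 and 100 nM for 24 h, with 2 libraries of total RNA per dose. The knock-in cells were taken from colonies grown from single cells, so any feature of that line is shared by all 12 libraries. BRG1 protein was not measured in these files, and a dose is therefore called by its dTAG13 concentration. Per the study, the 2 libraries of a dose came from independent experiments.

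BRG1 is the ATPase of mSWI/SNF, a complex that slides and evicts nucleosomes and so opens enhancers and promoters. In mES cells it works beside the pluripotency factors, and it also bears on Polycomb complexes, which keep developmental genes silent. Transcripts can therefore be higher as well as lower when BRG1 is lost, at its direct targets or downstream of them. Many genes of meiosis and of the piRNA pathway, which silences transposons in the male germ line, are held at low levels in mES cells by repressors that read DNA methylation or bind E-boxes and E2F sites in their promoters.

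The germ cell members are shown with their promoters because they form a group of related roles. That group was formed after the members had been seen. Some of the letters marked below were added after these sequences had been seen, so shared letters are description only. RefSeq promoters on GRCm38.p6, the assembly also called mm10, were matched for 10 of these 12 genes, for 111 of the 139 members and for 7515 of the 9815 genes. Each promoter runs from 250 bases before the start site to 50 bases after it. The 4 below hold both CACGTG, the E-box bound by MYC and MAX family dimers, and GCGGGA, a letter run found in many E2F sites. Ddx25 holds both too and is not printed. Dmc1, Tdrd5 and Gpat2 lack CACGTG, 4930447C04Rik lacks GCGGGA and Zcwpw1 lacks both. Capitals mark every CACGTG and every GCGGGA, or TCCCGC where it lies on the other strand, and the sequences read 5′ to 3′ on the strand of the gene. The regions are chr13:112652261-112652560 on the minus strand for Ddx4, chr1:166238695-166238994 on the minus strand for Mael, chr5:138280259-138280558 on the plus strand for Stag3 and chr3:102936051-102936350 on the minus strand for Sycp1.
Ddx4: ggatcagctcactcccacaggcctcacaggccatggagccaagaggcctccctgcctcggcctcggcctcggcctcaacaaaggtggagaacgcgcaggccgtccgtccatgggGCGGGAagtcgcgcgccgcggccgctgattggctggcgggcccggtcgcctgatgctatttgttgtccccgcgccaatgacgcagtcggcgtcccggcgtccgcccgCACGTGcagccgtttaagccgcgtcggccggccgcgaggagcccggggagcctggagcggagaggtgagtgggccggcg
Mael: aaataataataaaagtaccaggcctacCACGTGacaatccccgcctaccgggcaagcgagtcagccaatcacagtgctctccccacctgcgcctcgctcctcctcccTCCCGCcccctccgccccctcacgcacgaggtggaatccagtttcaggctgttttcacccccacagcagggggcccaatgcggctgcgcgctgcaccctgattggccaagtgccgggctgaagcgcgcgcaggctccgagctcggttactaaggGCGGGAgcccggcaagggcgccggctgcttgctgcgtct
Stag3: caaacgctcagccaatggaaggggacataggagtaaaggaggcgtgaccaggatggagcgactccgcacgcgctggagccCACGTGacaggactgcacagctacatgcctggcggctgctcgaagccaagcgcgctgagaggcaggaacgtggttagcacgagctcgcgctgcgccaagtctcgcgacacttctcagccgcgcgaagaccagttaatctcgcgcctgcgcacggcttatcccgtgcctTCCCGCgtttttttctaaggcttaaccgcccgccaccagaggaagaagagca
Sycp1: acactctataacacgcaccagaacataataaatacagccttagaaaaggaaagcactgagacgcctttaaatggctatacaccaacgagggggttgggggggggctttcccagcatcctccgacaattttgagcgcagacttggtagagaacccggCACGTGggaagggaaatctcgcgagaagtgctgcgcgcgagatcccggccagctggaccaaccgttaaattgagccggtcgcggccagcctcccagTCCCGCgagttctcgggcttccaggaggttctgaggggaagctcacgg

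The E-box began 29 bases before the start site in Ddx4, 223 before it in Mael, 170 before it in Stag3 and 94 before it in Sycp1. Its letters stood in 6 of the 10 matched germ cell promoters, against 11.3% of the 7515 promoters and 14.4% of those of the 111 members. GCGGGA, searched on both strands and added after the sequences had been seen, stood in 8 of the 10, against 39.3% of all promoters and 38.7% of the members' promoters. In 341 matched promoters of other genes at least 1.5 times 0 nM at 100 nM, CACGTG stood in 14.7% and GCGGGA in 40.8%. Promoters of germ cell genes outside the members were not counted apart. GCGGGA can share bases with GGGCGG, as it does in Ddx4. Over all matched members the other letters searched were near their share of all promoters. GGGCGG stood in 72.1% of the members' promoters against 69.2%, CCAAT in 33.3% against 39.6%, TATAAA in 6.31% against 5.99% and ATGCAAAT in 2.70% against 1.30%. TGACTCA stood in 0 of 111 against 2.79%. The members' promoters had a median of 22 CpG, as had all promoters. These counts are descriptions of letters, and binding was not measured.

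Depth was alike between doses. Total counts ran from 4663484 to 6375582, and 2 transcripts of a total RNA preparation, Rn45s and Rpph1, took 10.5% to 19.4% and 2.09% to 3.63% of them. The 2 libraries of 3 nM differed most, since chi-square over its degrees of freedom was 15.6 for them, 9.04 for the 10 nM pair and 1.96 for the 0.3 nM pair. The first 3 nM library also had the lowest total and the lowest share of Rn45s. All 8 mES markers, Pou5f1, Sox2 and Nanog among them, were at 5 CPM or more, and they summed to 3718 to 4379 CPM per library. Primitive endoderm markers summed to 6.95 to 7.91 CPM at 0 nM, 5.81 to 7.11 CPM at 10 nM and 10.8 to 12.1 CPM at 100 nM. Fibroblast feeder markers summed to 3.56 to 3.79 CPM at 0 nM, 5.004 to 5.29 CPM at 10 nM and 6.86 to 8.87 CPM at 100 nM. Markers of 2-cell-like cells ran from 4.29 to 9.30 CPM over all libraries, and in each of these 3 lists 0 of 7 markers reached 5 CPM. Trophectoderm markers summed to 43.5 to 47.0 CPM at 0 nM and 57.0 to 69.1 CPM at 10 nM, with 2 of 7 at 5 CPM or more. None of these markers is a member. In a longer list of 14 primitive endoderm genes Col4a2 was a member. There, 2 of 6 tested genes were higher and 1 lower at 10 than at 0.3 nM, with a median log2 fold change of 0.45. Over all genes tested 2.29% were higher and 3.40% lower. The part of these cell types in the members' values was not tested. In bulk RNA, more cells that carry a transcript cannot be told apart from more transcript per cell.

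The members' median ratio to 0 nM was 1.24 (0.3 nM), 1.45 (1 nM), 1.80 (3 nM), 1.93 (10 nM) and 2.06 (100 nM). Of the log2 difference between 100 and 0 nM, the median member already had 30.3% (0.3 nM), 52.6% (1 nM), 83.3% (3 nM) and 87.2% (10 nM). The rule sets a lower limit at 1, 3 and 100 nM, so nothing is read from these shares. The step from 10 to 100 nM was a median of 0.12 log2 units. The 25th and 75th percentiles at 1 nM were 41.8% and 70.1%, and 78 members had more than 50% there. The dose with the largest mean was 100 nM for 87 members, 10 nM for 27, 3 nM for 22, 1 nM for 1 and 0.3 nM for 2. Means were higher at every step from 0 to 100 nM in 52 members (3.15% of the 9815 genes), a count that the rule favours.

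**Figure D1:**
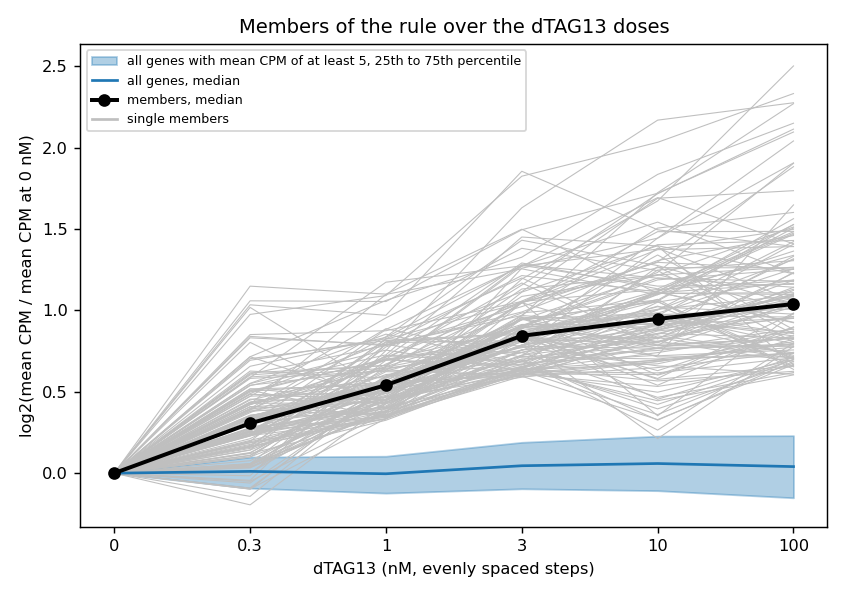
Each grey line is the log2 ratio of a member's mean CPM (n = 2 libraries) to its mean at 0 nM, against the dTAG13 dose in evenly spaced steps, with the members' median in black and the median and 25th to 75th percentiles of the 9815 genes in blue. The members' median ratio climbs from 1.24 at 0.3 nM to 1.80 at 3 nM and 2.06 at 100 nM while the median of all genes stays near a log2 ratio of 0, and the rule itself sets the least height at 1, 3 and 100 nM.

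At the 2 doses outside the rule's ratios, the 0.3 nM mean was above the 0 nM mean in 130 of 139 members (53.3% of the 9815 genes) and the 10 nM mean in all 139 (59.8% of genes). Both libraries lay above both 0 nM libraries in 76 members at 0.3 nM (20.4% of genes) and in 133 at 10 nM (32.8% of genes). At the doses the rule used, the 2 groups did not overlap in 128 members at 1 nM (19.7% of genes), 135 at 3 nM (28.3%) and 138 at 100 nM (35.6%). These counts share the 0 nM libraries that chose the members. The members were mostly low in the table, with a median mean CPM of 11.96 against 33.9 over the 9815, and 59 of them (42.4%) lay between 5 and 10 CPM, against 13.9% of genes. The 2 libraries at 0 nM together held from 28 counts upward, with a median of 90.

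In the test that the rule's ratios did not use, 57 of the 137 members that passed a filter of a mean of 1 RPKM (CPM with TMM-scaled library sizes per kilobase of exon) were higher at 10 nM than at 0.3 nM, and 0 were lower. This is 41.6%, where 2.29% of the 11378 genes tested were called higher and 3.40% were called lower. The test was the two-sided quasi-likelihood test of edgeR, adjusted by Benjamini-Hochberg over all genes tested, and a call needed a change of more than 1.5-fold at an adjusted p below 0.05. At an unadjusted p under 0.05 there were 93 members higher and 2 lower, Morn4 and Cptp, by the same test. The 2 members under the filter, Crtc3 and Sh3pxd2b, were not called in a fit of all 23204 genes with a count, in which 1.46% of genes were higher. The median log2 fold change of the 137 members was 0.62, against 0.00 for all genes tested. Both 10 nM libraries lay above both 0.3 nM libraries in 113 of 139 members (30.5% of genes). Calls followed depth, with 45 of the 80 members at a mean of 10 CPM or more called and 12 of the 57 tested members below it. Without the first 0.3 nM library 38 members were called higher.

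**Figure D2:**
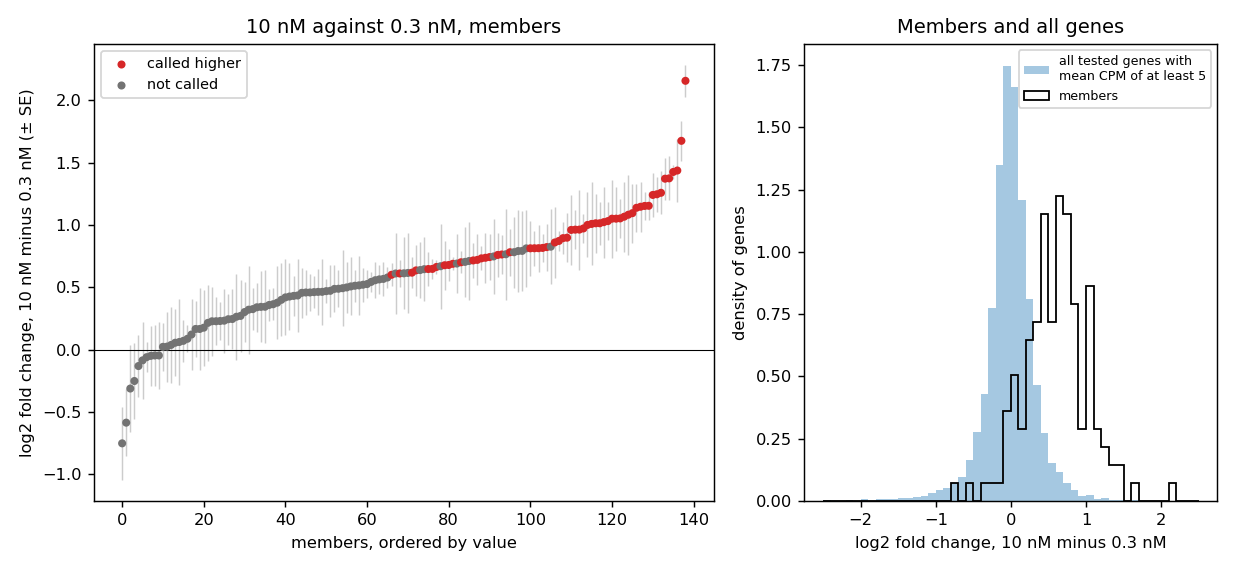
The left panel orders the 139 members by their log2 fold change at 10 nM against 0.3 nM, with standard errors as bars and the called members in red, and the right panel shows the distribution of the same value for members and for all tested genes of at least 5 CPM. The values of Crtc3 and Sh3pxd2b come from the fit without a filter, and the 57 called members all lie above 0.

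The sample names number the 0, 1, 10 and 100 nM libraries in one series and the 0.3 and 3 nM libraries in another, so the contrast of 10 with 0.3 nM crosses these series and the dose cannot be told apart from them there. The same holds for 0.3 and 3 nM against 0 nM, and so for the 3 nM ratio of the rule, the 130 members above 0 nM at 0.3 nM and the shares at these doses. Within a series, 3 nM means were above 0.3 nM means in 137 members (57.0% of the 9815 genes). The median log2 difference was 0.55, against 0.03 over all these genes. The 10 nM means were above 1 nM means in 122 members (62.5% of genes), with a median of 0.41 against 0.06. Both of these use libraries of the rule and are given without a test. As a comparison group, 459 other genes were at least 1.5 times 0 nM at 100 nM without meeting the rest of the rule. Of the 438 tested, 96 (21.9%) were higher at 10 than at 0.3 nM and 0 were lower, with a median log2 fold change of 0.41, and the difference between these genes and the members was not tested.

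Values in single libraries are written as pairs, replicate 1 first, with the dose in brackets. Slc7a2, which carries arginine and other cationic amino acids into cells, lies at chr8:40862367-40922070 on the plus strand of mm10, the build of all coordinates here, and had the largest log2 fold change among called members. It stood at 13.7/16.3 CPM (0 nM), 16/13.1 (0.3 nM), 26.4/24.2 (1 nM), 46.7/46.2 (3 nM), 61.8/73.1 (10 nM) and 78.3/67.0 (100 nM). The libraries of 0 and 0.3 nM overlapped, and those of 1, 3 and 10 nM were each clear of the dose below. It rose between 0.3 and 10 nM by a log2 fold change of 2.16 (SE 0.13, adjusted p = 1.45e-11, edgeR). Slc43a1, a carrier of large neutral amino acids, also rose, by 1.09 (SE 0.24, adjusted p = 0.00216). Among the 9 members that encode transporters and channels, 6 rose between these doses and 0 fell. Of all 139 members 57 rose, as did 2.29% of all genes tested. Of the 9, 8 had their highest mean at 100 nM, as had 87 of all 139. Slc4a3, an anion exchanger, Atp10d, a lipid flippase, and Ano3 also rose, by 0.76 to 1.07. The potassium channel gene Kcnn1 had 3.46/3.40 CPM (0 nM), 6.90/5.49 (1 nM) and 10.5/10.9 (100 nM), and its log2 fold change between 0.3 and 10 nM was 0.12 (adjusted p = 0.845).

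Cgnl1, at chr9:71626507-71771602 on the minus strand, encodes paracingulin, which links cell junctions to the actin and microtubule cytoskeleton. It had 10.4/10.3 CPM (0 nM), 10.1/10.7 (0.3 nM), 15.8/12.9 (1 nM), 22.7/17.8 (3 nM), 37.4/31.0 (10 nM) and 48.4/51.6 (100 nM). From 1 nM on, every dose lay above the dose below it in both libraries. Between 0.3 and 10 nM it rose by 1.68 (SE 0.16, adjusted p = 5.25e-08). Of the 15 members of the cytoskeleton and of junctions, 6 rose there (57 of all 139 members, 2.29% of all genes tested) and 0 fell. They included Hydin and Ccdc40, genes of motile cilia, which rose by 1.26 and 1.15, Nefl, the light neurofilament chain, by 1.03, and Spire2, a nucleator of actin filaments, by 0.89. Shroom3, which drives apical constriction of epithelial cells, had an adjusted p of 2.83e-05 at a log2 fold change of 0.58, just under the fold required.

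Adgrb2, an adhesion G protein-coupled receptor, had 3.79/5.17 CPM (0 nM), 4.35/4.31 (0.3 nM), 6.398/5.18 (1 nM), 13.1/8.38 (3 nM), 11.6/12.8 (10 nM) and 18.1/15.5 (100 nM). The 0 and 0.3 nM libraries overlapped, and so did those of 3 and 10 nM. It rose by 1.44 between 0.3 and 10 nM (SE 0.25, adjusted p = 0.000245). Of the 15 members that are secreted, lie in the matrix or sit at the cell surface, 10 rose and 0 fell. Over the whole set 57 of 139 members rose, as did 2.29% of all genes tested. Adam23, a cell adhesion protein of the ADAM family without protease activity, rose from 40.7 and 48.5 CPM at 0.3 nM to 101 and 104 CPM at 10 nM, a log2 fold change of 1.15 (SE 0.11, adjusted p = 4.97e-08). Igdcc3 and Igdcc4, cell surface proteins of the immunoglobulin family encoded 3241 bases apart on chromosome 9, rose by 1.05 and 1.01, and the related Prtg by 0.61. Col4a2, a basement membrane collagen also made by primitive endoderm, rose by 0.78 (SE 0.19, adjusted p = 0.00591, and 0.0854 without the first 0.3 nM library) and Fgf17, a secreted growth factor, by 0.65.

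**Figure D3:**
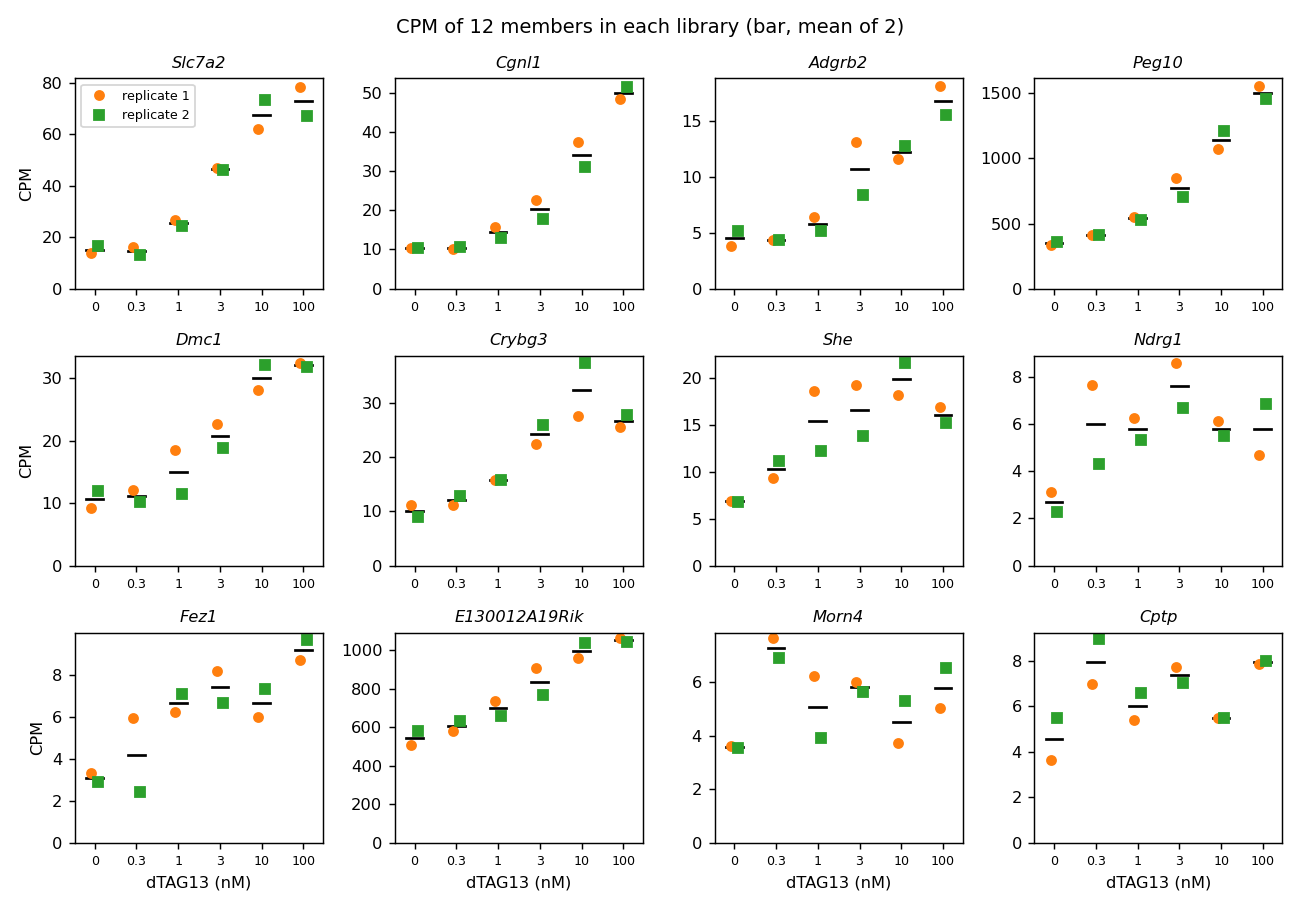
CPM of 12 members in every library against the dTAG13 dose, with circles for replicate 1, squares for replicate 2 and a bar for the mean of the 2; each axis starts at 0. Slc7a2, Cgnl1 and Peg10 climb in steps from 1 nM to 100 nM, whereas Morn4 and Cptp have their highest libraries at 0.3 nM and Ndrg1 is near its final level from 0.3 nM.

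Peg10 is a gene derived from a retrotransposon and expressed from the paternal allele, needed for the placenta, at chr6:4747306-4760516 on the plus strand. It was among the most abundant members, at a mean of 116 RPKM, with 338.0/358.0 CPM (0 nM), 409/412 (0.3 nM), 551/528 (1 nM), 848/703 (3 nM), 1075.5/1213 (10 nM) and 1555/1458 (100 nM). Each dose lay above the dose below it in both libraries, 0.3 nM included. It rose by 1.43 between 0.3 and 10 nM (SE 0.055, adjusted p = 2.9e-15). It was the only member in a list of 28 imprinted genes, of which 16 reached 5 CPM, where 1.42% of the 9815 genes were members. Of the 18 imprinted genes tested, 2 rose and 2 fell between 0.3 and 10 nM, against 2.29% and 3.40% of all genes tested. Sfmbt2, described below, is also imprinted but was not on that list.

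E130012A19Rik, a gene to which no role is given here, had the highest level of any member per exon length, 336 RPKM. It stood at 509/579 CPM (0 nM), 582/632 (0.3 nM), 737/657 (1 nM), 908/766 (3 nM), 958/1035 (10 nM) and 1063/1040 (100 nM). Each dose lay above the dose below it in both libraries. It rose by 0.66 between 0.3 and 10 nM (SE 0.058, adjusted p = 9.82e-09). Crybg3 had 11.2/8.89 CPM (0 nM), 11.1/12.9 (0.3 nM), 15.8/15.8 (1 nM), 22.5/26.0 (3 nM), 27.6/37.4 (10 nM) and 25.6/27.8 (100 nM). From 1 nM on all its libraries lay above those of 0 and 0.3 nM. It rose by 1.37 (SE 0.17, adjusted p = 2.4e-06), and 12.2% of its exon length overlaps Mina on the opposite strand, whose reads the counting could not separate. Cast, which encodes the calpain inhibitor calpastatin, rose by 1.15 between 0.3 and 10 nM and stood highest at 100 nM, at 98.1 and 108 CPM against 22.9 and 27.2 at 0 nM.

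The 17 members of transcription and chromatin held 7 that rose between 0.3 and 10 nM and 0 that fell. Over the whole set 57 of 139 members rose, as did 2.29% of all genes tested. Sfmbt2, an imprinted gene at chr2:10370451-10595253 on the plus strand whose protein belongs to the Polycomb family, had the largest ratio to 0 nM at 100 nM, 5.67. It stood at 14.99/12.4 CPM (0 nM), 20.2/15.5 (0.3 nM), 20.7/16.8 (1 nM), 34.5/28.2 (3 nM), 45.4/42.1 (10 nM) and 79.9/75.6 (100 nM). The libraries of 0.3 and 1 nM overlapped, and each later dose was clear of the dose before. It rose by 1.25 (SE 0.14, adjusted p = 5.58e-07).

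Myc, at chr15:61985341-61990361 on the plus strand, drives genes of growth and ribosome production. It had 56.0/56.9 CPM (0 nM), 61.4/59.5 (0.3 nM), 91.6/85.8 (1 nM), 102/96.2 (3 nM), 109/120 (10 nM) and 107/115 (100 nM). Its libraries from 1 nM on all lay above those of 0 and 0.3 nM, and those of 10 and 100 nM overlapped. It rose by 0.87 between 0.3 and 10 nM (SE 0.081, adjusted p = 2.68e-08). In a list of 25 genes linked to MYC in growth, all at 5 CPM or more, 0 were members, against 1.42% of the 9815 genes. Of these 25 genes 0 were called at 10 against 0.3 nM, where 2.29% of all genes tested were higher and 3.40% lower. Their median log2 fold change was -0.01. The list is short, so nothing is read from these zeros. The study reports activation of MYC-target genes relative to control cells, a contrast that was not tested here for this list. In the MYC-MAX network, Myc was the only member among 9 genes at 5 CPM, and of the 9 tested 2 rose and 1 fell.

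Bmi1, a subunit of PRC1, rose by 0.76 (SE 0.15, adjusted p = 0.00116), from 17.04 and 16.04 CPM at 0.3 nM to 26.6 and 31.7 CPM at 10 nM. Commd3, 801 bases upstream of it on the same strand of chromosome 2, is also a member, and had a log2 fold change of 0.57 with an adjusted p of 0.00494. Tet3, an enzyme that oxidizes 5-methylcytosine, rose by 0.97 (SE 0.11, adjusted p = 1.18e-06). Ncoa3 and Ncoa1, coactivators of nuclear receptors, rose by 0.69 and 0.62. The retinoic acid receptor gene Rarg had a log2 fold change of 0.54 (adjusted p = 2.32e-05) and Irf9, which carries interferon signals to the nucleus, 0.52 (adjusted p = 0.0107), both short of the fold required. Rarg passed it at 0.63 without the first 10 nM library and Irf9 at 0.66 without the first 0.3 nM library. None of the 18 naive pluripotency genes at 5 CPM, and none of 24 mSWI/SNF subunit genes, were members. Only 1.42% of the 9815 genes were members, so nothing is read from these zeros in short lists.

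Nefl was the only member among the 8 genes at 5 CPM in a list of 29 neural genes, against 1.42% of all genes. Of that list 11 could be tested and 5 rose (against 2.29% of all genes tested).

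Between 0.3 and 10 nM, 57 of all 139 members and 2.29% of all genes tested rose. Of the 12 members of meiosis and germ cells, 8 rose and 0 fell, with a median log2 fold change of 0.78. Their median ratio to 0 nM was 1.19 (0.3 nM), 1.41 (1 nM), 1.89 (3 nM), 2.15 (10 nM) and 1.90 (100 nM). The highest mean lay at 10 nM in 8 of the 12, against 27 of 139 members, and the median log2 difference between 100 and 10 nM was -0.07, against 0.12 for all members. All 12 were above the 0 nM mean at 0.3 nM, as were 130 of all 139 members and 53.3% of the 9815 genes. This grouping was made after the members had been seen, as was that of the other roles, and these differences were not tested.

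Dmc1, at chr15:79561498-79605109 on the minus strand, encodes the recombinase that pairs homologous chromosomes in meiosis. It had 9.23/11.96 CPM (0 nM), 12.2/10.2 (0.3 nM), 18.5/11.4 (1 nM), 22.7/18.8 (3 nM), 28.1/32.1 (10 nM) and 32.5/31.9 (100 nM). The 1 nM libraries were far apart, and one of them lay within the range of 0 and 0.3 nM. It rose by 1.37 between 0.3 and 10 nM (SE 0.18, adjusted p = 4.07e-06).

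Stag3, the meiotic cohesin subunit whose promoter is shown above, had 36.7/41.7 CPM (0 nM), 41.2/45.3 (0.3 nM), 57.1/51.8 (1 nM), 74.8/66.0 (3 nM), 73.8/75.1 (10 nM) and 63.6/66.0 (100 nM). Both 100 nM libraries lay below both 10 nM libraries and above both 1 nM libraries. It rose by 0.73 between 0.3 and 10 nM (SE 0.095, adjusted p = 4.95e-06).

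Tex15, needed for piRNA-directed methylation and for meiotic recombination, had 74.6/66.6 CPM (0 nM), 87.1/93.5 (0.3 nM), 105/94.9 (1 nM), 134/120 (3 nM), 138/155 (10 nM) and 114/108 (100 nM). It too was lower in both 100 nM libraries than in both 10 nM libraries. It rose by 0.65 between 0.3 and 10 nM (SE 0.080, adjusted p = 2.37e-06). 4930447C04Rik, also called Six6os1, which encodes a protein of the synaptonemal complex, rose by 1.24 (SE 0.17, adjusted p = 1.34e-05) and had 30.2 and 41.6 CPM at 10 nM and 25.8 and 26.5 CPM at 100 nM.

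Sycp1, the transverse filament of the synaptonemal complex, rose by 0.82 (SE 0.19, adjusted p = 0.00352), from 12 and 14.1 CPM at 0.3 nM to 19.7 and 28.6 CPM at 10 nM. Its adjusted p was 0.071 without the first 0.3 nM library and 0.0899 without the second 10 nM library. Zcwpw1, a histone reader of meiotic recombination sites, rose by 0.96 (SE 0.16, adjusted p = 8.87e-05), Tdrd5, a piRNA pathway protein, by 1.05 and Ddx25, an RNA helicase of spermatids, by 1.08. Of Zcwpw1, 21.1% of the exon length overlaps Pilra on the opposite strand. Ddx4, the germ cell RNA helicase also called VASA, had 30.8/27.3 CPM (0 nM), 40.3/33.1 (0.3 nM), 43.4/39.2 (1 nM), 48.0/49.2 (3 nM), 57.8/54.3 (10 nM) and 50.9/53.4 (100 nM). Its log2 fold change between 0.3 and 10 nM was 0.56 (SE 0.12, adjusted p = 0.00139), under the fold required, which it passed at 0.71 without the first 0.3 nM library and at 0.67 without the second 10 nM library. Every library of it with dTAG13 lay above both 0 nM libraries. The piRNA pathway genes Piwil2, Mael and Gpat2 had log2 fold changes of 0.46, 0.43 and 0.21 and were not called.

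In a list of 17 germline genes, 3 of the 10 at 5 CPM were members, against 1.42% of genes, and 2 of 12 tested, Sycp1 and Tex11, rose, against 2.29% of all genes tested. In a longer list of meiosis and piRNA genes, written after the members had been seen, 12 of the 28 at 5 CPM were members. In this list 11 of the 37 tested genes rose between 0.3 and 10 nM, against 2.29% of all genes tested, and 0 fell. The median log2 fold change was 0.55. Those that rose without being members were Fkbp6, Mnd1 and Tex11. Since that list was built around members, its share of members, its count of genes that rose and its median are no evidence of their own. Of the 35 gene lists searched in all, 12 held a member and 23 held none, and 13 members were in any list.

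**Figure D4:**
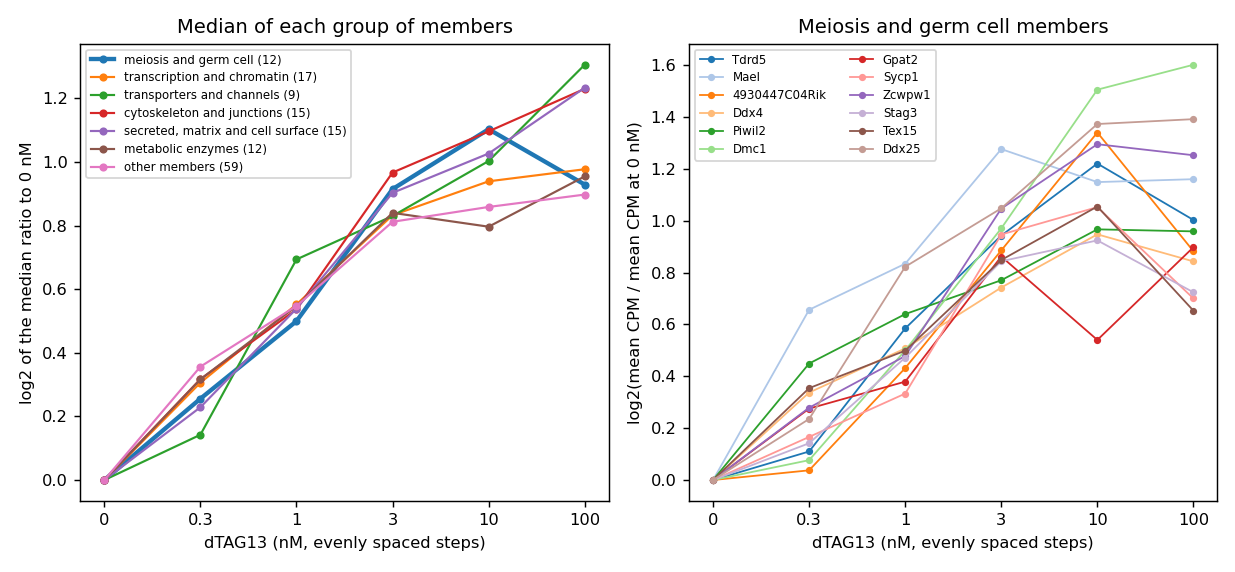
The left panel plots, for each of 7 groups of members by role (number of genes in brackets), the log2 of the group's median ratio to 0 nM against the dTAG13 dose, and the right panel plots the log2 ratio of mean CPM (n = 2) for each of the 12 germ cell members. The germ cell group reaches 2.15 times 0 nM at 10 nM and 1.90 times at 100 nM, whereas transporters and channels reach 2.47 times at 100 nM.

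Metabolic enzymes made up 12 members, of which 4 rose between 0.3 and 10 nM and 0 fell. Over the whole set 57 of 139 members rose, as did 2.29% of all genes tested. Pnp2, a purine nucleoside phosphorylase with a near copy beside it, rose by 1.01 (SE 0.17, adjusted p = 0.000173, edgeR), and the carbonic anhydrase gene Car2 by 0.74. Read pairs that mapped to both copies were left out of the counts. Acp5, an acid phosphatase, rose by 1.01. Pm20d2, a peptidase of unusual dipeptides, rose by 1.05 (SE 0.31, adjusted p = 0.0254), but its 0 nM libraries stood apart, with 1.32 and 5.01 CPM from 8 and 31 counts. Its adjusted p was 0.081 to 0.263 without either 0.3 nM library or the second 10 nM library, taken in turn, and 0.0595 with DESeq2. The other 59 members had mixed or unassigned roles, and 16 of them rose, the kinase gene Pim2 and Ankrd13b among them.

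The members with the largest ratios at 1 nM were low, and the 6 highest of them lay between 5.61 (Ndrg1) and 14.2 (She) in mean CPM. She, which encodes an SH2 domain adaptor, had 6.92/6.79 CPM (0 nM), 9.39/11.2 (0.3 nM), 18.7/12.2 (1 nM), 19.3/13.8 (3 nM), 18.2/21.7 (10 nM) and 16.9/15.2 (100 nM). All libraries with dTAG13 lay above those of 0 nM, and 1, 3 and 100 nM overlapped. It rose by 0.90 between 0.3 and 10 nM (SE 0.20, adjusted p = 0.00236, and 0.0558 without the first 0.3 nM library).

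Ndrg1, a gene of the stress and hypoxia response, had 3.13/2.26 CPM (0 nM), 7.65/4.31 (0.3 nM), 6.23/5.33 (1 nM), 8.58/6.67 (3 nM), 6.13/5.47 (10 nM) and 4.69/6.86 (100 nM). All libraries with dTAG13 lay above both 0 nM libraries, and the 0.3 nM pair spanned those of 1 and 10 nM. The log2 fold change between 0.3 and 10 nM was -0.09 (SE 0.31, adjusted p = 0.90). Its 0 nM libraries held 19 and 14 counts. Fez1, a transport adaptor of axons, had 3.29/2.91 CPM (0 nM), 5.91/2.41 (0.3 nM), 6.23/7.06 (1 nM), 8.15/6.67 (3 nM), 5.97/7.29 (10 nM) and 8.70/9.64 (100 nM). The 0.3 nM libraries lay on both sides of those of 0 nM. The log2 fold change was 0.62 (SE 0.32, adjusted p = 0.239, edgeR), or 1.39 without the first 0.3 nM library. Ap3m2, a subunit of an adaptor complex for vesicles, had ratios of 2.08 at 0.3 nM and 2.08 at 1 nM and a log2 fold change of 0.61 (adjusted p = 0.238).

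A few members were as high or higher at 0.3 nM than at 10 nM. Morn4 had 3.62/3.56 CPM (0 nM), 7.65/6.90 (0.3 nM), 6.23/3.92 (1 nM), 6.004/5.64 (3 nM), 3.71/5.29 (10 nM) and 5.02/6.53 (100 nM). Its log2 fold change between 0.3 and 10 nM was -0.75 (SE 0.29, adjusted p = 0.096). Cptp, a transfer protein for ceramide-1-phosphate, had 3.62/5.50 CPM (0 nM), 6.96/8.97 (0.3 nM), 5.39/6.59 (1 nM), 7.72/7.01 (3 nM), 5.49/5.47 (10 nM) and 7.87/8.004 (100 nM). Both 0.3 nM libraries of both genes lay above both 10 nM libraries, and neither was called. Arl16 and Trp53i13 had log2 fold changes of -0.31 and -0.25.

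Many genes lay close to the limits of the rule. For the level, Crtc3 at 5.01 CPM was inside and Gnb4 at 4.99 CPM and Pcsk1n at 4.98 CPM were outside, with Zfp712 next inside at 5.03. At 1 nM, Slc38a7 with a ratio of 1.253 and Sycp1 with 1.26 were inside, and Tub with 1.248 and Star with 1.247 were outside. At 3 nM, Xndc1 with 1.505 and Chst12 with 1.51 were inside, and Lin28b with 1.497 and Fam214b with 1.496 were outside. At 100 nM, 2810428I15Rik and Josd2, each at 1.52, were inside, and Irx2 with 1.496 and Arl14epl with 1.495 were outside. Of Xndc1, 56.8% of the exon length is shared with Xntrpc on the same strand, so its counts are uncertain. Membership also moved with single libraries, since 46 of the 139 members met the rule whichever of the 12 libraries was left out. Of these 46, 24 rose between 0.3 and 10 nM, against 57 of all 139 members and 2.29% of all genes tested.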

How the data were processed

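RNA-seq of 12 libraries was analysed, in 6 groups of dTAG13 dose taken from the sample labels, 2 libraries each. Per the labels and methods, reads were trimmed with Trim Galore and aligned with HISAT2 to mm10. The deposited values are raw counts of read pairs on exons from featureCounts 2.0.1, without multi-mapped pairs, without regard to strand and without normalization by the authors. CPM was the count divided by the library total, and exon lengths came with the counts. Members were found from group means of CPM. For the test, the 6 groups were fitted together in R 4.3.3 with edgeR 4.0.16 (TMM, glmQLFit, glmQLFTest), over the 11378 genes whose mean RPKM reached 1. Calls needed an adjusted p below 0.05 and more than 1.5-fold change. DESeq2 1.42.0 was an alternative. The steps were tested on simulated counts.

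The members, gene lists and tests were chosen with earlier results of these data known. Members are named if they had 1 of the 12 largest called log2 fold changes at 10 against 0.3 nM, 1 of the 6 largest ratios at 1 nM, 1 of the 5 highest RPKM or 1 of the 4 lowest fold changes, lay in a gene list (up to 3 of a list) or were nearest to a limit of the rule. Other examples of a role were chosen after their values were seen, and some genes that the rule would name are not reported here. Total counts of 4663484 to 6375582 put the lowest members at 28 counts over both 0 nM libraries. Reads carry no molecular identifiers.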

Additional observations from a re-analysis of the deposited data

How the results depend on the processing

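The number of members depended on the scale and on the 0 nM libraries. It was 165 with totals that left out Rn45s and Rpph1, 116 with DESeq2 size factors and 98 with TMM-scaled sizes, and 98 of the 139 met the rule under all 3. With TMM-scaled sizes the median share of the 100 nM difference present at 1 nM was 59.9%. With a library left out the number of members ran from 116 to 264, with 235 without the first 0 nM library and 264 without the second. A minimum of 1 CPM gave 515 members and of 10 CPM 80.

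The count of members higher at 10 than at 0.3 nM was 57. It was 61 with the likelihood ratio test, 46 with DESeq2's Wald test, 63 without normalization factors and 53 without a filter, and ran from 38 to 54 with a library left out, and 0 members were lower in each. With the replicate block it was 54. The correlations of same-numbered deviations ran from -0.14 to 0.12 over 15 pairs of doses. Whether libraries of the same replicate number came from one experiment is not stated, and these correlations cannot settle it. The sign reversed, uncalled, for Ndrg1 (-0.44 at the lowest, 0.38 without the first 0.3 nM library and 0.05 without the second 10 nM library), Zfp712 (0.32 at the highest, -0.09 without the second 0.3 nM library and -0.26 without the first 10 nM library) and 2810428I15Rik (0.37 without the second 10 nM library and -0.31 without the first 10 nM library). The cause was not tested. Among named genes the call was lost in single alternatives by Pm20d2, Sycp1, Col4a2 and She, and gained by Fez1, Rarg, Ddx4, Irf9 and Slc38a7. Over genes and alternatives, 497 values kept their call and direction, 9 gained a call, 11 lost it and 5 reversed.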
